A study of Mus musculus with 5 samples.

Results

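The genes described here are 8 transcription factor genes of 3 families: the orphan nuclear receptors Nr4a1, Nr4a2 and Nr4a3, the early growth response zinc finger factors Egr1, Egr2 and Egr3, and the HMG-box factors Tox and Tox2. They were taken by symbol from the 19726 gene symbols of the deposited tables, and all 8 were present in every library. RNA was measured in samples labelled CD4+ T cells, the helper and regulatory lymphocytes, from wild-type C57/Bl6j mice aged 7 weeks. The spleen group had 3 libraries (replicates 1, 2 and 3) and the tumor group had 2 (replicates 2 and 3), the latter from MC38, a mouse colon carcinoma line that grows as a graft in this strain. RNA was drawn from 300000 cells per sample. The labels name no treatment and no tumor age, and do not say whether a sample was 1 mouse or a pool or how cells were purified. No label or header states the unit of the values. They are taken here as TPM, the relative transcript abundance, corrected for transcript length, that the quantifier named in the submitters' processing notes gives, and levels are set side by side between genes on that reading.

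The 3 families are linked in T cell biology. Engagement of the T cell receptor raises calcium and activates MAP kinases, and within minutes to hours switches on Egr and Nr4a genes without new protein synthesis. EGR2 and EGR3 act in T cell anergy and tolerance, NR4A proteins restrain T cells that meet antigen again and again, and TOX supports the persistence and the dysfunction of such cells. Nr4a and Egr genes are not T cell genes only: macrophages and many other cells switch them on as immediate early genes after inflammatory or stress signals. TOX has a longer-known role in the development of CD4 T cells in the thymus.

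The Nr4a and Egr genes are textbook targets of CREB, which binds the sequence TGACGTCA or its partial form TGACG, and of SRF, which binds the CArG box (CC, then A or T bases, then GG). Promoters are shown here for the members in the RefSeq table of build GRCm38.p6 whose window held TGACG or a CArG box. These are Nr4a1, Nr4a2, Nr4a3 and Egr2, printed 5' to 3' along the gene. They were thus picked by motif and not by their change in level. Capitals mark TGACG on either strand (CGTCA where the match lies on the opposite strand) and, in Egr2, the CArG box. The window is the 250 bases before the start site, chr15:101266596-101266845 (plus strand) for Nr4a1, chr2:57124004-57124253 (minus strand) for Nr4a2 and chr10:67537619-67537868 (plus strand) for Egr2. For Nr4a3 the 98 bases before the first annotated exon are shown, chr4:48045055-48045152 (plus strand).
Nr4a1: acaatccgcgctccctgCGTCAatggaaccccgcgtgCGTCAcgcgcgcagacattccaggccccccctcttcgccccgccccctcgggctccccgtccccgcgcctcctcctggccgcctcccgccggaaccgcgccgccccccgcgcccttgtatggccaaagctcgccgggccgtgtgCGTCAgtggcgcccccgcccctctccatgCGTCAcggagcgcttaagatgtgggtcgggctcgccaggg
Nr4a2: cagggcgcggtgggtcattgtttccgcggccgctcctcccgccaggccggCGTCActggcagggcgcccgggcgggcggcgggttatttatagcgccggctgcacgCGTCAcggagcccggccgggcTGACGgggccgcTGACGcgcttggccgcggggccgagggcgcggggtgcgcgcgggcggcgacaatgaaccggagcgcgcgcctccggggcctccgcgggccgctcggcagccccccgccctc
Nr4a3: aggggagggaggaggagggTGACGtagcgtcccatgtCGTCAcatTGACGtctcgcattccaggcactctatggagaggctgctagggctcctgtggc
Egr2: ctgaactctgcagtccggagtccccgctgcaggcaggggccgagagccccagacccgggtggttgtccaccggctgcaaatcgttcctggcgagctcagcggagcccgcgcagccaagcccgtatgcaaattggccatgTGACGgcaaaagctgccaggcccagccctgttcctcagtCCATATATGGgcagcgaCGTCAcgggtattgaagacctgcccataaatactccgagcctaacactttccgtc

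Each of the 3 Nr4a promoters held 4 matches to TGACG in its 250 bases, of which 3 lie in the printed stretch of Nr4a3. The Nr4a3 window ends at a RefSeq start that no GENCODE transcript shares, 152 bases past the printed stretch. Its remaining match therefore lies past the start of the first annotated exon. At least 3 such matches occurred in 0.695% of the 32536 distinct promoters of that length, and at least 1 in 17.9%. The match nearest to the start site of Nr4a1 ended 35 bases before it. Egr2 held 2 matches to TGACG, and its single CArG box, which overlaps neither of them, ended 62 bases before the start site. Such a box occurred in 1.48% of promoters. The full TGACGTCA, found in 1.56% of promoters, was in none of these 4 windows. Of the other motifs searched on both strands, the EGR site GCGTGGGCG or GCGGGGGCG (3.09% of promoters) occurred in Nr4a1, the NFAT core GGAAA (55.7%) in Nr4a2 and Egr2, TATAAA (12.3%) in Nr4a2 on the opposite strand, and AAAGGTCA, the site that NR4A proteins bind as monomers (1.35%), in none. Tox2 held none of these motifs before the 1 of its 5 starts that was searched, and was for that reason not printed. Egr1, Egr3 and Tox had no entry in the promoter table. A match of letters is a description and was not tested for binding or for a link to the changes in level.

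All 5 libraries were compared, tumor against spleen, the contrast by which the study asks how the tumor environment alters these cells. The listed TPM of a library added up to 268987 at the least and 359532 at the most in spleen, and to 569309 and 596116 in tumor. Read depth is unknown, and no counting interval is given. T cell markers were lower in tumor: 10 of 10 fell, and they summed to 873 to 1153 TPM per library in spleen against 213 to 282 TPM in tumor. The level of Cd4 itself was 115 ± 16.5 TPM in the 3 spleen libraries and 27.0 ± 0.22 TPM in the 2 tumor libraries (± SD), and that of Cd3e, a chain of the receptor complex, 86.1 ± 24.4 and 13.3 ± 0.65 TPM. All 16 macrophage and monocyte markers rose, and their sum per library was 71.0 to 98.3 TPM for spleen and 7398 to 8105 TPM for tumor, where Ctss, a cathepsin gene, was highest at 2496 ± 207 TPM. The sum of the neutrophil markers was 18.0 to 22.5 TPM per spleen library and 68.1 to 73.4 TPM per tumor library, with 2 of 5 tested higher and 1 lower. Most of that sum in tumor was Csf3r, a growth factor receptor gene of granulocytes and monocytes, which had a mean of 0.88 ± 0.24 TPM for spleen against 55.5 ± 3.28 TPM for tumor. Most of it in spleen was Cxcr2, which fell from 15.5 ± 2.88 to 9.19 ± 3.49 TPM (limma adjusted p = 0.0042). For fibroblast and endothelial markers the sum was 76.0 to 79.7 TPM (spleen) against 101 to 112 TPM (tumor), with 2 of 7 tested higher and 5 not called. Kdr, an endothelial receptor gene, was among those higher, at 0.65 ± 0.19 and 32.9 ± 0.32 TPM. The highest of the list in both tissues was Pecam1, at 62.0 ± 6.47 and 59.0 ± 5.92 TPM and not called. Sums in spleen and tumor were 9.19 to 14.1 and 14.3 to 14.9 TPM for dendritic cell, 6.75 to 8.03 and 7.02 to 8.18 TPM for B cell, 12.2 to 14.8 and 5.73 to 5.99 TPM for NK cell, 6.44 to 7.34 and 4.92 to 5.48 TPM for CD8 T cell, and 2.06 to 2.58 and 1.51 to 1.52 TPM for tumor epithelium markers. No marker of these lists was at 0 in every library of a tissue, and Csf3r, Cxcr2, Kdr and Pecam1 are named after their values were seen. In such bulk samples fewer cells of a type and less RNA per cell cannot be told apart. The part that RNA of macrophages or other such cells has in each result below was not tested.

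In the tumor libraries 5 of the 8 genes rose (Nr4a1, Nr4a2, Nr4a3, Egr1 and Egr2) and 3 fell (Egr3, Tox and Tox2), by limma's test on log2(TPM + 1) at an adjusted p below 0.05 over all 12979 genes tested. All 8 passed the filter of a mean of at least 1 TPM. The background is high: 40.9% of all genes tested rose and 18.1% fell, so that 59.0% were called. The groups did not overlap for any of the 8. Over all genes tested, the tumor libraries lay wholly above the spleen libraries for 46.6% and wholly below for 23.8%, so a call or a lack of overlap by itself does not set these genes apart. Their median log2 change was 2.90, beside 0.23 for all genes tested. With 3 libraries against 2, the exact permutation test over samples cannot give a two-sided p below 0.2, and each of the 8 genes gave 0.2. Nothing in the labels says that replicates were separate mice, so the spread between samples may be technical. The limma errors draw mostly on genes of similar level (3 residual and 44.1 prior degrees of freedom). The limma p-values thus do not measure the spread of each gene between its own samples alone.

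**Figure D1:**
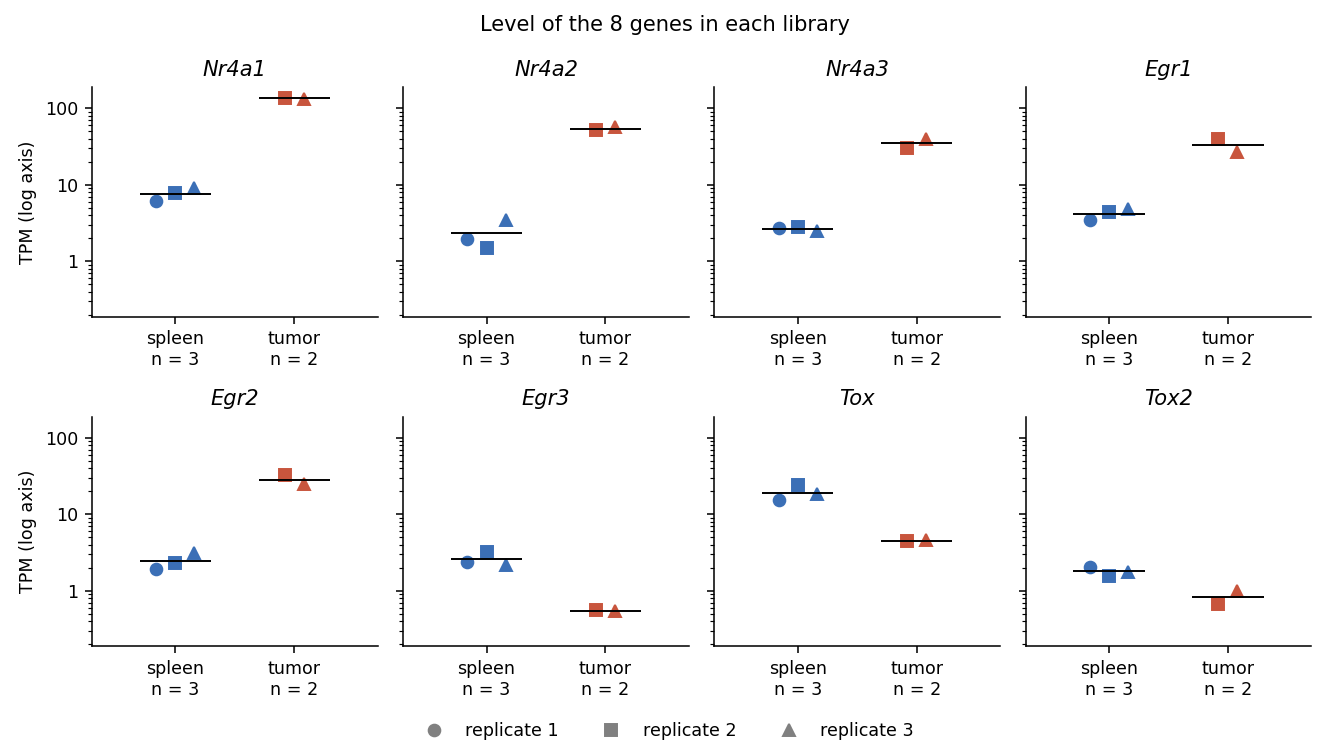
TPM of each gene in each library on a log axis, with spleen in blue and tumor in red, the marker shape giving the replicate number and the line the group mean. The 3 Nr4a genes, Egr1 and Egr2 lie higher in both tumor libraries than in any spleen library, and Egr3, Tox and Tox2 lie lower in the deposited TPM.

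Nr4a1, also called Nur77, is the member whose level is widely used as a read-out of recent T cell receptor signalling; it lies on chromosome 15 (101254269 to 101274795, GRCm38, plus strand). It stood at 6.05, 7.73 and 8.97 TPM in spleen replicates 1, 2 and 3, and at 137 and 134 TPM in tumor replicates 2 and 3. The tumor libraries were close to each other and both far above every spleen library. The ratio of means was 17.9, and the log2 change 4.01 ± 0.21 (SE; 95% interval 3.58 to 4.43; limma adjusted p = 2.9e-22). Nr4a2 (Nurr1; chromosome 2, 57106830 to 57124003, minus strand), known best for its role in dopamine neurons and also induced in T cells, was at 1.96, 1.48 and 3.50 TPM in spleen and at 51.3 and 56.3 TPM in tumor. Spleen replicate 3 was the highest of its 3 spleen values, and both tumor values lay far above them. Its log2 change was 4.09 ± 0.22 (SE; limma adjusted p = 7.5e-22), which differed from that of Nr4a1 by less than its SE. Which of the pair was larger turned with a pseudocount of 10 (2.38 for Nr4a2, 3.05 for Nr4a1), scaled on T cell markers (5.91 and 6.05) and without spleen replicate 2 (3.91 and 4.03). Nr4a3 (Nor1; chromosome 4, 48045153 to 48086447, plus strand) was at 2.69, 2.78 and 2.50 TPM in spleen and at 29.9 and 40.0 TPM in tumor. Its spleen values were nearly level while its tumor values differed, with replicate 3 higher, and the log2 change was 3.28 ± 0.21 (SE; limma adjusted p = 3.5e-19).

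Egr1 and Egr2 rose and Egr3 fell. Egr1, a zinc finger factor that MAP kinase signalling induces in almost every cell type (chromosome 18, 34859823 to 34864984, plus strand), was at 3.45, 4.35 and 4.79 TPM in spleen and at 39.9 and 27.1 TPM in tumor. The tumor libraries differed by more than for Nr4a1, replicate 2 being the higher, and the log2 change was 2.72 ± 0.21 (SE; limma adjusted p = 9.6e-16). Egr2 (chromosome 10, 67535475 to 67542188, plus strand), a factor of T cell tolerance that macrophages use as well, was at 1.95, 2.34 and 3.14 TPM in spleen and at 32.3 and 24.8 TPM in tumor. Here too tumor replicate 2 was the higher, and the log2 change was 3.09 ± 0.21 (SE; limma adjusted p = 7.4e-18). Egr3 (chromosome 14, 70077203 to 70082614, plus strand), which acts with EGR2 in T cells, was at 2.41, 3.22 and 2.20 TPM in spleen and at 0.56 and 0.54 TPM in tumor. Both tumor values lay below the lowest spleen value, and the log2 change of TPM + 1 was -1.21 ± 0.22 (SE; 95% interval -1.65 to -0.77; limma adjusted p = 6.0e-06), a fall that was absent when libraries were scaled on T cell markers (-0.023, limma adjusted p = 0.935).

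Tox and Tox2 were lower in the deposited tumor values. Tox (chromosome 4, 6686353 to 6991557, minus strand) was the most abundant of the 8 genes in spleen, at 15.3, 24.0 and 18.4 TPM, and stood at 4.43 and 4.64 TPM in tumor. The spleen libraries spread widely, with replicate 2 the highest, yet even the lowest of them was well above the tumor values. The ratio of means was 4.23 in favour of spleen, and the log2 change -1.85 ± 0.21 (SE; 95% interval -2.27 to -1.42; limma adjusted p = 1.6e-10), a fall that turned to 0.12 (limma adjusted p = 0.640) when scaled on T cell markers. Tox2 (chromosome 2, 163203125 to 163324170, plus strand), a relative known from follicular helper and dysfunctional T cells, was at 2.05, 1.58 and 1.78 TPM in spleen and at 0.68 and 1.00 TPM in tumor. The groups did not overlap, but the gap between them was small, from 1.00 to 1.58 TPM. Its log2 change of -0.61 ± 0.22 (SE; limma adjusted p = 0.0163) was no longer called when spleen replicate 1, spleen replicate 3 or tumor replicate 2 was left out (limma adjusted p = 0.0506, 0.0664 and 0.149), and it turned to 0.63 (limma adjusted p = 0.0368) when scaled on T cell markers.

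Most of the 8 genes were low in spleen, and the 3 that fell were low in tumor. As a background served the 1134 olfactory receptor genes, which lymphocytes are not known to use. The median level of these genes was 0.74, 0.47 and 0.62 TPM in spleen replicates 1, 2 and 3. It was lower in tumor, at 0.32 and 0.44 TPM in replicates 2 and 3. In spleen, Nr4a1 exceeded 87.1% to 92.7% of them and Tox 94.4% to 98.7%. The remaining 6 genes exceeded 72.3% to 87.8% of them, so their spleen levels lay among those of the more highly listed olfactory genes. In tumor the 5 genes that rose exceeded at least 98.9% of the olfactory genes of the same library, whereas Tox exceeded 89.6% to 91.6%, Tox2 66.7% to 67.4% and Egr3 55.2% to 63.1%.

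The order of the genes by level differed between the tissues. In spleen it ran from Tox (15.3 to 24.0 TPM) through Nr4a1 (6.05 to 8.97 TPM) to Egr1 (3.45 to 4.79 TPM), with no overlap between these neighbours. Below them Nr4a3, Egr3, Egr2, Nr4a2 and Tox2 each overlapped the next. In tumor Nr4a1 came first, then Nr4a2, without overlap. Nr4a3, Egr1 and Egr2 followed at 24.8 to 40.0 TPM, overlapping each other, and then Tox, Tox2 and Egr3, with gaps between them. Tox thus stood at rank 1 of 8 in spleen and rank 6 in tumor, and Egr3 last in tumor, with Tox2 next to it.

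A share within a family does not move with the scaling of a library. It can move with the mix of cells, whose markers differed between the tissues, and that part was not tested. The Nr4a genes summed to 10.7 to 15.0 TPM per library in spleen and to 219 and 230 TPM in tumor, a ratio of means of 17.9. Of that sum Nr4a1 made up 60.3% ± 3.96 (SD, n = 3) in spleen and 60.5% ± 3.36 (SD, n = 2) in tumor. Nr4a1 was thus the largest part of the sum in both tissues, with the libraries of the tissues interleaved. Nr4a2 held 18.3%, 12.3% and 23.4% of the family in spleen and 23.5% and 24.5% in tumor, so that its lowest tumor share barely exceeded its highest spleen share. Nr4a3 held 16.7% to 25.1% in spleen and 13.7% to 17.4% in tumor, overlapping.

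The 3 Egr genes summed to 7.81 to 10.1 TPM per spleen library and 52.4 and 72.8 TPM in the tumor libraries. Egr3 supplied 30.9%, 32.5% and 21.7% of that sum in spleen and 0.77% and 1.03% in tumor, so that its tumor shares lay far below every spleen share. In both tissues Egr3 lay among the levels of the olfactory genes, whose median was higher in spleen. The part of such a background in this share was not tested. Egr2 held 25.0%, 23.7% and 31.0% in spleen and 44.4% and 47.3% in tumor, where both shares lay above every spleen share. Egr1 held 43.9% to 47.3% in spleen and 51.7% to 54.8% in tumor. In the Tox family, with sums of 17.3 to 25.5 TPM per spleen library and 5.11 and 5.64 TPM in the tumor libraries, Tox held 88.1% to 93.8% in spleen and 82.2% to 86.8% in tumor. The two-sided exact permutation test gave its smallest possible p, 0.2, for 6 of the 8 shares (adjusted over the 8, 0.267), 0.4 for Nr4a3 and 1 for Nr4a1, so no share could pass a threshold in this design.

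**Figure D2:**
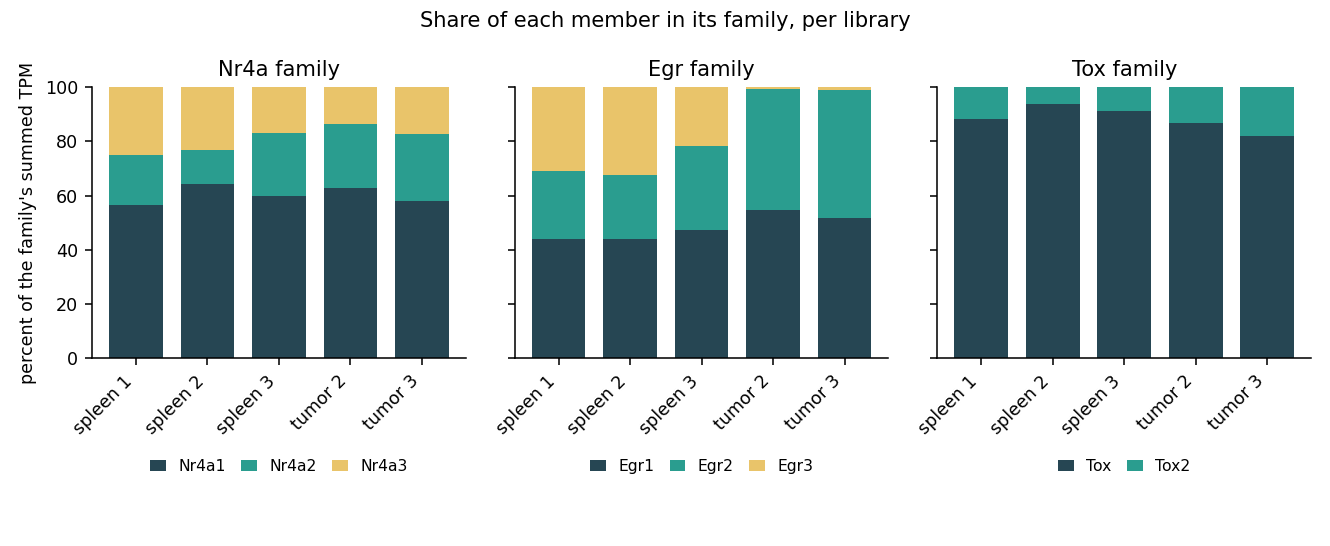
Stacked bars give the percent of each family's summed TPM that each member holds, for the 3 spleen and 2 tumor libraries. The Egr3 segment is 21.7% to 32.5% of the bar in spleen and at most 1.03% in tumor, while the Nr4a1 segment is 56.6% to 64.5% in all 5 libraries. The Egr shares in spleen rest on levels of 1.95 to 4.79 TPM.

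Since T cell markers fell and macrophage markers rose in the same tumor libraries, the levels were also set against the geometric mean of the 10 T cell markers, on average 90.7 TPM for spleen against 20.0 TPM for tumor. Per unit of that mean, Tox was at 0.191, 0.227 and 0.213 in spleen and at 0.198 and 0.264 in tumor, and Egr3 at 0.0301, 0.0304 and 0.0255 against 0.0250 and 0.0309. For Tox 1 tumor library lay inside the spleen range and 1 above it, and for Egr3 1 lay below and 1 above, with ratios of tumor to spleen means of 1.10 and 0.974. Tox2 per T cell marker was 0.0149 to 0.0256 in spleen and 0.0302 to 0.0572 in tumor. The 5 genes that rose moved much further on this scale, by 35.7-fold (Egr1) to 104-fold (Nr4a2), and Nr4a1 went from 0.0842 ± 0.0171 (SD, n = 3) to 6.88 ± 1.04 (SD, n = 2). That scaling treats the T cell markers as level by construction, and it turned nearly all genes upward, the median log2 change of all genes tested being 2.11 and 99.1% of calls being rises.

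The other scalings left every one of the 8 calls in place. By median ratios, to equal listed totals and on the upper quartile, the median change of all genes tested was -0.05, -0.54 and -0.45, and rises made up 52.4%, 29.0% and 32.6% of calls, beside 69.3% in the deposited values. Beside those shifts the log2 change of Nr4a1 was 3.69, 3.12 and 3.23, and that of Egr1, the smallest rise, 2.41, 1.87 and 1.97. Egr3 stayed between -1.66 and -1.37, and Tox between -2.64 and -2.13. Scaled on T cell markers, 6 of the 8 genes rose, none fell, and Egr3 and Tox were not called.

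**Figure D3:**
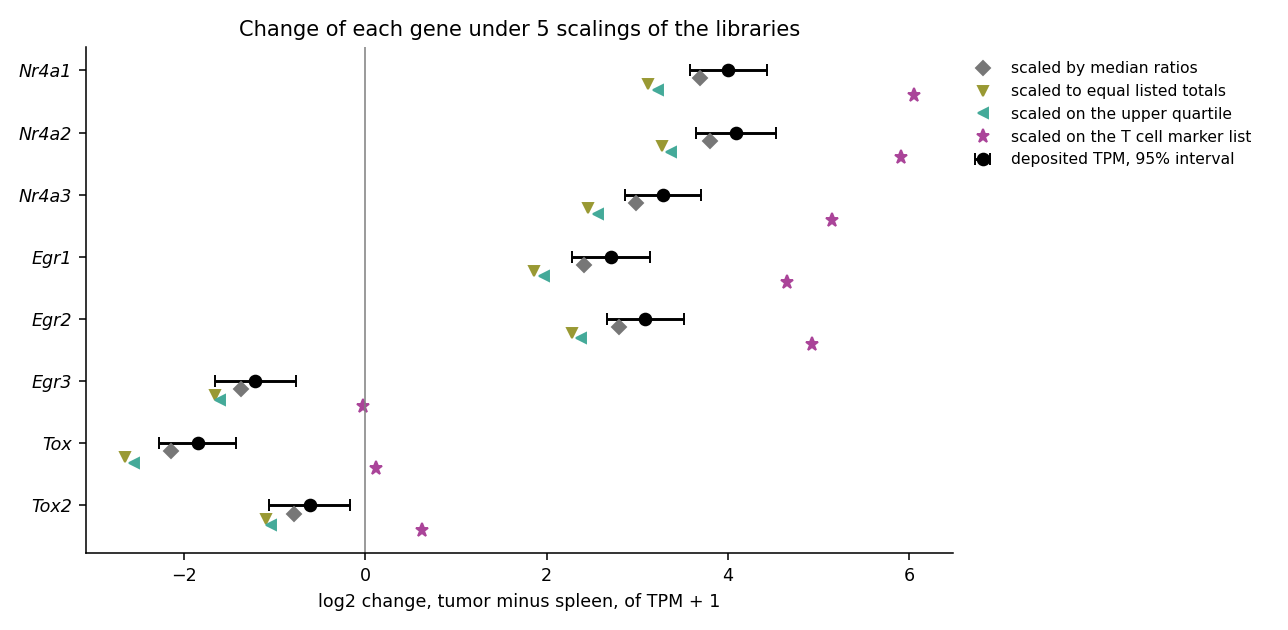
Log2 change of TPM + 1, tumor minus spleen, for each gene: black points with 95% intervals from limma are the deposited TPM and coloured symbols are 4 other scalings. The Nr4a genes, Egr1 and Egr2 are right of 0 throughout, while Egr3, Tox and Tox2 are left of 0 except with the T cell marker list, where they are at -0.023, 0.12 and 0.63.

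Calcium opens the pathway through calcineurin, a phosphatase that sends NFAT factors to the nucleus. Of 9 calcineurin and NFAT genes, 2 rose, 3 fell and 4 gave no call (median log2 change -0.37). Of all genes tested 40.9% rose and 18.1% fell (median 0.23), the background of this and the list counts below. Rcan1, a calcineurin regulator that is itself an NFAT target, rose from 1.92 ± 0.26 TPM (SD, n = 3) to 19.7 ± 2.86 TPM (SD, n = 2; limma adjusted p = 9.4e-17). Ppp3cc, a catalytic subunit of calcineurin, fell from 16.2 ± 5.10 to 5.38 ± 1.35 TPM (limma adjusted p = 3.7e-07), a fall that changed sign when scaled on T cell markers. Ppp3cb, another catalytic subunit, had the highest mean of the list over the 5 libraries, though Nfatc3 was near it in spleen and Ppp3ca in tumor. Ppp3cb gave 58.0 ± 15.3 TPM in spleen and 40.9 ± 3.20 TPM in tumor, a log2 change of -0.46 without a call (limma adjusted p = 0.0609). Ppp3cb was called lower by median ratios (-0.79), on the upper quartile (-1.27), with equal totals (-1.38) and without spleen replicate 1, and higher on T cell markers (1.68). On the upper quartile 7 of the 9 fell, as did 6366 of all 12979 genes tested. Scaled on T cell markers all 9 rose, as did 12332 of the 12979, so that count does not set these genes apart.

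Of 10 genes for SRF, its ETS-domain partners, MEF2 and CREB factors, which drive immediate early promoters such as those shown above, 6 rose, 1 fell and 3 were not called (median 1.19). Over all genes tested 40.9% rose and 18.1% fell (median 0.23). Crem, a CREB relative whose product includes a repressor that CREB induces, rose from 8.20 ± 1.47 to 232 ± 1.64 TPM (limma adjusted p = 5.2e-25); it was the most abundant of the list in tumor but not in spleen, where Elk4 was. Elk4, an SRF partner, fell from 81.5 ± 24.5 to 40.4 ± 2.99 TPM (limma adjusted p = 2.3e-04), a fall that changed sign with the T cell marker scaling. With equal totals 5 of the 10 rose and 4 fell, beside 2724 and 6662 of all 12979 genes tested.

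Of the 8 family relatives and cofactors, 5 were tested, of which 3 rose and none fell, while Egr4, Tox3 and Rxrg did not reach the filter. The shares over all genes tested were 40.9% for rises and 18.1% for falls. Nab1, a corepressor that binds EGR proteins, rose from 15.3 ± 2.26 to 67.0 ± 2.54 TPM (limma adjusted p = 3.6e-12). Its relative Nab2, an EGR target as well, rose from 8.85 ± 0.56 to 17.7 ± 2.41 TPM (limma adjusted p = 1.6e-04), a call lost when libraries were scaled to equal totals or to the upper quartile. Tox4, a broadly expressed member of the TOX family, went opposite to Tox and Tox2 in the deposited values, from 15.1 ± 0.67 to 39.5 ± 1.98 TPM (limma adjusted p = 2.4e-07). Tox4 and Nab2 are named after their values were seen.

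Of 10 genes linked to EGR-driven anergy, 6 rose, 2 fell and 2 were not called (median 0.77). Over all genes tested 40.9% rose and 18.1% fell (median 0.23), so this count by itself does not set these genes apart. Dgka, a diacylglycerol kinase that dampens T cell receptor signalling, was the most abundant of the list in spleen, though not in tumor, and fell from 163 ± 39.9 to 16.6 ± 0.52 TPM (limma adjusted p = 3.2e-18), also when scaled on T cell markers. With equal totals or on the upper quartile 2 of the 10 rose and 4 fell, while of all 12979 genes tested 2724 and 3078 rose and 6662 and 6366 fell. Of 12 receptors and factors raised with NR4A and TOX in dysfunctional T cells, 11 rose and 1 was not called (median 1.69), beside rises of 40.9% over all genes tested. Havcr2, the gene of TIM-3, which myeloid cells also carry, rose from 0.40 ± 0.10 to 102 ± 10.5 TPM (limma adjusted p = 2.6e-30), and Entpd1, the gene of the ATP-degrading enzyme CD39, from 11.0 ± 1.07 to 158 ± 20.0 TPM (limma adjusted p = 2.9e-21). The number of rises in that list was 8 by median ratios, 6 with equal totals or on the upper quartile, and 7 without tumor replicate 2, where 4313, 2724, 3078 and 4756 of all 12979 genes tested rose.

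All 12 immediate early genes outside the 8 rose, with a median log2 change of 4.61, and all 12 rose under each of the 4 other scalings, of which that on T cell markers raised nearly all genes. In the deposited values 40.9% of all genes tested rose, with a median of 0.23 over all of them. Atf3, a stress-induced factor, went from 0.16 ± 0.09 to 475 ± 32.1 TPM (limma adjusted p = 5.6e-36), and Fos, a subunit of AP-1, from 7.09 ± 4.60 to 1040 ± 30.2 TPM (limma adjusted p = 3.7e-27). The list as a whole summed to 98.3 to 121 TPM per spleen library and 3426 to 3558 TPM per tumor library. Nr4a1, Nr4a2, Nr4a3, Egr1 and Egr2, which belong to the same class of rapidly induced genes, had log2 changes of 2.72 to 4.09, within the range of 2.36 to 8.69 of these 12. Egr3, of the same class, did not share the direction. The 12 genes were chosen with earlier results of these data known, so their count and range are no separate check. The lists overlap with genes that macrophages express, whose marker sum rose in the same libraries, and its part in these counts was not tested.

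**Figure D4:**
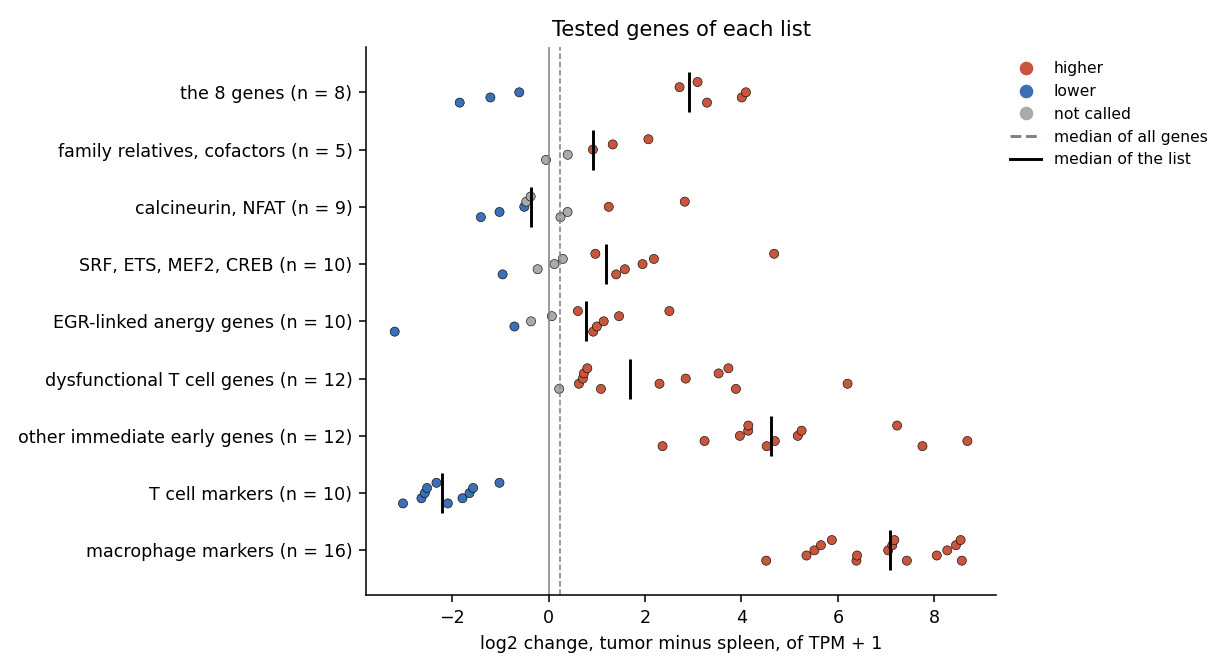
Each point is the log2 change (tumor minus spleen, TPM + 1) of a tested gene, red where it rose, blue where it fell and grey where it was not called, with the median of each list as a black bar and that of all genes as a dashed line. The 8 genes split into 5 at 2.72 to 4.09 and 3 at -1.85 to -0.61, while the T cell markers lie left of 0 and the macrophage markers right of 4 in the deposited TPM.

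For each of the 8 genes the most similar profile was sought among 6919 other genes whose log2(TPM + 1) averaged 3 or more, as the smallest Euclidean distance between mean-centred log2(TPM + 1) values over the 5 libraries. The nearest to Nr4a1 was Klf6, an immediate early zinc finger gene, at a distance of 0.08, with 30.3 ± 4.55 TPM in spleen and 486 ± 21.2 TPM in tumor. The nearest to Nr4a2 was Mlkl, the effector of necroptosis (0.31), to Nr4a3 Rab43, a small GTPase (0.17), to Egr1 Id2, an inhibitor of DNA binding (0.24), and to Egr2 Ogfr, the opioid growth factor receptor (0.26). The nearest to Tox was Atm, the DNA damage kinase, at 0.09, with 24.2 ± 5.60 TPM in spleen and 5.96 ± 0.62 TPM in tumor. The nearest to Egr3 was Mboat1 (0.05) and to Tox2 Adi1 (0.11). Adding 1 TPM shrinks the change of these 2 low members more than that of the genes set beside them. Mboat1 went from 11.9 ± 1.97 to 4.43 ± 0.02 TPM, while Egr3 went from 2.61 ± 0.54 to 0.55 ± 0.01 TPM. With 2 groups and 5 libraries many profiles are close: 275 genes lay within a distance of 1 of Nr4a1, 308 of Tox, 1041 of Egr3 and 2298 of Tox2. The points share the scaling of their libraries.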

How the data were processed

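Total RNA libraries, stranded and depleted of ribosomal RNA, were read in pairs of 75 bp each, per the labels. kallisto, DESeq2 and the build mm10 are named in the submitters' processing notes, with no version or role. The deposited files give 1 value per gene symbol, taken as TPM because kallisto is named and the values are not whole numbers. They sum to 26.9% to 59.6% of the total to which TPM are scaled, which does not establish the unit. Only listed genes enter these sums. Depth per library is unknown, and the number of libraries limits the precision.

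The 8 members and all lists were chosen with earlier results of these data known. Symbols were matched exactly; Trac, of the 11 T cell markers, was not found. The 12979 genes that averaged 1 TPM or more were fitted on log2(TPM + 1) with limma 3.58.1 (R 4.3.3), tissue as the only term and a mean-variance trend, with two-sided tests, Benjamini-Hochberg adjustment over all genes and calls at an adjusted p below 0.05. The fit had 3 residual and 44.1 prior degrees of freedom, so errors are mostly those of genes of similar level. Fold changes on this scale understate the change of low genes. The procedure was tested on simulated data with independent noise and few changed genes. In these libraries 59.0% of genes were called, so that test cannot show how the p-values behave here. Permutation tests used scipy 1.17.1.

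Named outside the 8 were Cd4, Cd3e, the called gene with the smallest p in each direction and the most abundant gene of each list (by its mean over all libraries), the top macrophage marker and the nearest profile. The values of 1 gene under this rule are not reported here. Positions are from GENCODE M21 (GRCm38) and promoters from RefSeq (GRCm38.p6), where 5 of the 8 genes matched; among several starts the one shared by the most GENCODE transcripts was used, and a tie went to the most upstream. Replicate numbers 2 and 3 occur in both tissues, and no label says that they mark a shared mouse. The alternatives were other pseudocounts, filters and scalings, no trend, a replicate block and each library left out.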

Additional observations from a re-analysis of the deposited data

How the results depend on the processing

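Nr4a1, Nr4a2, Nr4a3, Egr1 and Egr2 kept their call under all 14 alternatives, with log2 changes from 1.60 (Egr1, pseudocount 10) to 6.05 (Nr4a1, scaled on T cell markers). With that scaling no member fell (0, beside 3), Egr3 was at -0.023 and not called, and Tox and Tox2 turned to 0.12 and 0.63. Tox2 ranged from -0.74 to -0.48 with 1 library left out and lost its call when spleen replicate 1 (-0.55), spleen replicate 3 (-0.61) or tumor replicate 2 (-0.48) was left out. Of the 61 listed genes outside the 8, 58 were tested, 40 rose and 6 fell. Falls numbered 10 by median ratios, 17 with equal totals and again 17 when scaled on the upper quartile, and 1 on T cell markers; rises numbered 36, 28, 29 and 56. Without 1 library falls were 5 to 8. Over all genes, falls were 2347, and 3920, 6662, 6366 and 111 under these 4 scalings, beside 4313, 2724, 3078 and 12332 rises (5309 as deposited), and 1209 without tumor replicate 2. The cause was not tested.

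With the replicate block, which leaves 1 residual degree of freedom, all 8 members kept their call, and listed genes gave 39 rises and 7 falls. Spleen replicate 1 has no partner, so the members' log2 changes equalled those without it (Nr4a1 3.87, Tox -1.99) and are no separate check. The prior degrees of freedom were infinite, so a gene's own spread had no part in its call. The same held without spleen replicate 3 or either tumor library. Deviations of libraries that share a number correlated across genes at 0.20 (replicate 2) and 0.07 (replicate 3). Spleen replicate 1 gave -0.19 with tumor replicate 2 and 0.19 with tumor replicate 3. With so few libraries these values are tied to each other and can neither show nor exclude a pairing. The numbers were not taken to pair the libraries, since no label says so. Leaving out 1 tumor library assumes that the other varies like the spleen libraries.

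With 1 TPM added to each member, the tumor minus spleen difference in family share moved from 0.17 to 5.06 percentage points for Nr4a1, from -6.56 to -12.3 for Tox and from 6.56 to 12.3 for Tox2. With 1 library left out, the Nr4a1 difference ranged from -2.20 to 2.55 and changed sign when spleen replicate 1 (-1.69), spleen replicate 3 (-0.035) or tumor replicate 2 (-2.20) was missing. Levels near 1 TPM, as of Egr3 and Tox2 in tumor, are those that the unknown depth limits most.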
